A study of Mus musculus with 6 samples.

Results

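The guanylate-binding proteins are large GTPases that cells make in response to interferon. Of these genes, named *Gbp*, 11 had a value in the heart libraries studied here. They were among 24346 genes listed, and 6 of them, *Gbp2*, *Gbp3*, *Gbp5*, *Gbp6*, *Gbp7* and *Gbp9*, are described here in most detail. These 6 were selected on their values in the same libraries, which were high in the N group and low in the NP group, so their levels and differences are given as a description without a test. Male C57BL/6 mice of the C group were fed chow, those of the N group received the NASH diet, rich in fat, cholesterol and sucrose and containing bile acid, and those of the NP group received this diet with pemafibrate (0.1 mg/kg), a selective modulator of PPARα. Heart RNA was sequenced in 6 libraries, 2 per group. The sample labels give 3 weeks of feeding, which is shorter than in the published methods. Chow with pemafibrate is not among these 6 libraries.

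Interferon-gamma, made mainly by T and natural killer cells, acts through the kinases Jak1 and Jak2 on genes with DNA elements called GAS. Type I interferons act through Stat2 and Irf9 on elements called ISRE, and the factor Irf1 binds similar elements. The proteins made from *Gbp* genes assemble on the membranes that enclose intracellular bacteria and parasites, open them together with the immunity-related GTPases (IRG proteins), and help caspase-11 and other inflammasome sensors to detect the contents. *Gbp2* and *Gbp5* encode proteins that are anchored to membranes by a prenyl group at their end. In the heart, interferon-gamma can induce these genes in many cell types, including endothelial cells, macrophages and cardiomyocytes.

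The 11 genes lie in 2 clusters on mm10 in the RefSeq annotation. The cluster on chromosome 3 spans 141 kb from 142496934 to 142638008 and holds 5 genes on the plus strand in the order *Gbp5*, *Gbp7*, *Gbp3*, *Gbp2b* and *Gbp2*. The cluster on chromosome 5 spans 334 kb from 105012513 to 105346476 and holds 6 genes on the minus strand, *Gbp8*, *Gbp9*, *Gbp4*, *Gbp10*, *Gbp6* and the transcribed pseudogene *Gbp11*. Both clusters thus contributed members, 4 from chromosome 3 and 2 from chromosome 5.

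RefSeq promoter sequences (GRCm38.p6) of 250 bases before the transcription start were at hand for the 5 genes of the chromosome 3 cluster, among them 4 members. They were searched on both strands for the cores of both elements, TTC and GAA 3 bases apart for GAS and a pair of GAAA words 2 bases apart for ISRE. All 5 genes had an ISRE core, which 3.46% of 27025 genes and 2.98% of their 32851 promoters had. A GAS core was found in 2 of the 5, *Gbp5* and *Gbp7*, and in 8.13% of the genes and 7.02% of the promoters. The 5 genes are neighbours of one family, so their motifs are not independent of each other. In each case the ISRE core was read on the strand opposite to the gene, so that it appears below as TTTC words 2 bases apart. The segments that hold it are shown because these genes moved together, with the motif cores in capitals. They are stretches of the plus strand of chromosome 3, namely chr3:142496729-142496818 for *Gbp5*, chr3:142530243-142530332 for *Gbp7*, chr3:142559959-142560015 for *Gbp3*, chr3:142594670-142594759 for *Gbp2b* and chr3:142620594-142620623 for *Gbp2*.
*Gbp5*: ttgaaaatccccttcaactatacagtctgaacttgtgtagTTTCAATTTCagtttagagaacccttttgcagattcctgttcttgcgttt
*Gbp7*: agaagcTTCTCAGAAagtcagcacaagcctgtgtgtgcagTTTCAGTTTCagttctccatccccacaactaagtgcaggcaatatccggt
*Gbp3*: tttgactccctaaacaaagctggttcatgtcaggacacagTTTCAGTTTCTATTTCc
*Gbp2b*: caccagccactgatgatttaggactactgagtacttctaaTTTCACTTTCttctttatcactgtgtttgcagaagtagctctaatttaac
*Gbp2*: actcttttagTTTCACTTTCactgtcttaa

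The 4 member segments share the letters agTTTCA, and after 1 further base comes another TTTC. In *Gbp3* a further core overlaps the first, so that 3 TTTC words follow each other. The ISRE core closest to the start lay 39 to 30 bases before it in *Gbp3*, 53 to 44 in *Gbp7* and 59 to 50 in *Gbp2*, whereas it lay 165 to 156 bases before it in *Gbp5* and 137 to 128 in *Gbp2b*. *Gbp7* had GAS cores 106 to 98 and 87 to 79 bases before the start, and the latter, TTCTCAGAA, is the other word in capitals in its segment. *Gbp5* had GAS cores at 245 to 237 and 52 to 44 bases, outside the segment shown. The site of *Gbp2* lies inside an exon of the GENCODE annotation, so its place before the start holds for the RefSeq start only. For *Gbp3* and *Gbp2b* the start of the promoter sequence lies inside the RefSeq gene, and from the start of the gene their cores lie closer than given here. These matches describe the letters only, and binding was not measured.

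**Figure D1:**
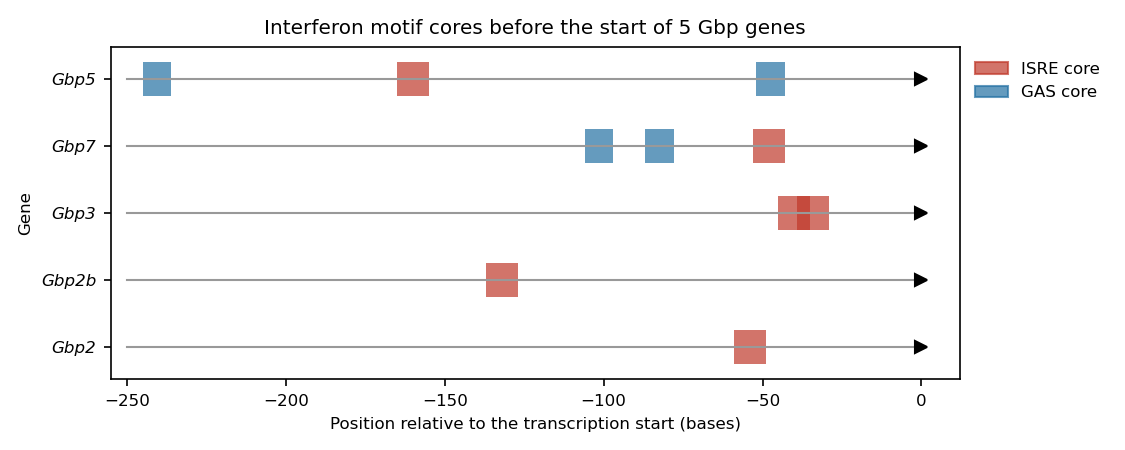
Positions of the ISRE core (red) and the GAS core (blue) in the 250 bases before the transcription start of the 5 Gbp genes on chromosome 3, with the distance from the start in bases on the horizontal axis and one gene per line. Each of the 5 genes has at least 1 ISRE core, and in Gbp7, Gbp3 and Gbp2 one lies within 59 bases of the start.

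The values are FPKM, fragments relative to transcript length and to all mapped fragments of the library. Reads of 75 bases can be assigned only where a transcript differs from its paralogs, so the 75-base words of the longest protein-coding transcript of each gene were looked up in the other *Gbp* genes. Of these words, 57.2% of *Gbp6* were also found in another *Gbp* gene, mostly in *Gbp10*, which shared 51.7%, and 63.9% of *Gbp10* were found elsewhere in the family. The share was 4.32% for *Gbp9*, 2.68% for *Gbp3*, 1.26% for *Gbp7*, 0.983% for *Gbp2* and 0 for *Gbp5*. The division of reads between *Gbp6* and *Gbp10* is therefore uncertain, and their sum is given beside the single values. The other 5 members rest mostly on words of their own. In the GENCODE annotation *Gbp8*, *Gbp9* and *Gbp4* also overlap on one strand, so that a part of their reads could be exchanged as well.

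The depth, estimated from the smallest steps between FPKM values, was about 26100000 and 21500000 reads in the C libraries, 8770000 and 8670000 (N libraries) and 8190000 and 8470000 (NP libraries). The C libraries were 2.45 to 3.19 times as deep as the others, so depth and diet cannot be told apart in comparisons with the C group, whereas the N and NP libraries had similar depth. The label of the tissue was checked with 9 cardiomyocyte genes. Their summed FPKM was 67670 and 72155 (C libraries), 49862 and 53761 (N libraries) and 52658 and 62043 (NP libraries), with *Myl2*, a ventricular myosin light chain, as the most abundant. Although an extraction text in the labels speaks of liver, 7 hepatocyte genes summed to 34.8 and 477 (C libraries) and to 10.5 to 14.4 in the other 4 libraries, with *Alb* as the most abundant at 10.8 and 211 (C libraries). C replicate 2 thus stood apart most by its hepatocyte transcripts. C replicate 1 also lay above all N and NP libraries for each of these genes except *Ahsg*. *Alb* had 0.555 to 2.04 in the N and NP libraries, and *Ahsg* had 5.38 in C replicate 1 against 8.53 to 10.7 there.

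*Gbp2*, whose product coats parasite vacuoles, had an FPKM of 12.9 and 9.62 (C libraries), 71.6 and 81.0 (N libraries) and 12.8 and 12.7 (NP libraries). *Gbp5*, which encodes another prenylated member known from inflammasome assembly, had 4.62 and 3.49, then 23.5 and 25.0, then 3.60 and 4.04. Both N libraries lay above all 4 others for both genes, and the C and NP libraries overlapped. Fewer or more cells that express a gene and a different amount of RNA per cell cannot be told apart in RNA of whole tissue.

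*Gbp3* and *Gbp7*, neighbours on chromosome 3 that take part in the control of intracellular pathogens, had the same shape. The FPKM of *Gbp3* was 6.90 and 6.09 (C libraries), 56.5 and 74.9 (N libraries) and 5.51 and 5.95 (NP libraries). That of *Gbp7* was 6.17 and 5.62, then 35.5 and 45.2, then 4.76 and 6.10. In the NP group, both libraries of *Gbp3* lay just under both C libraries, and those of *Gbp7* overlapped with them.

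On chromosome 5, *Gbp6* was the most abundant member in 5 of the 6 libraries, with an FPKM of 18.0 and 11.0 (C libraries), 214 and 170 (N libraries) and 19.1 and 6.73 (NP libraries). *Gbp9*, the member with the flattest profile, had 7.18 and 7.31, then 16.8 and 24.4, then 8.53 and 8.69. The NP libraries of *Gbp6* differed from each other more than those of any other member, and those of *Gbp9* both lay above the C libraries. *Gbp6* plus *Gbp10* summed to 19.1 and 11.6 (C libraries), 285 and 232 (N libraries) and 20.4 and 6.94 (NP libraries), a shape like that of *Gbp6* alone. Because the transcripts of the pair differ in length, this sum also depends on how the reads were divided, and other divisions were not computed.

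**Figure D2:**
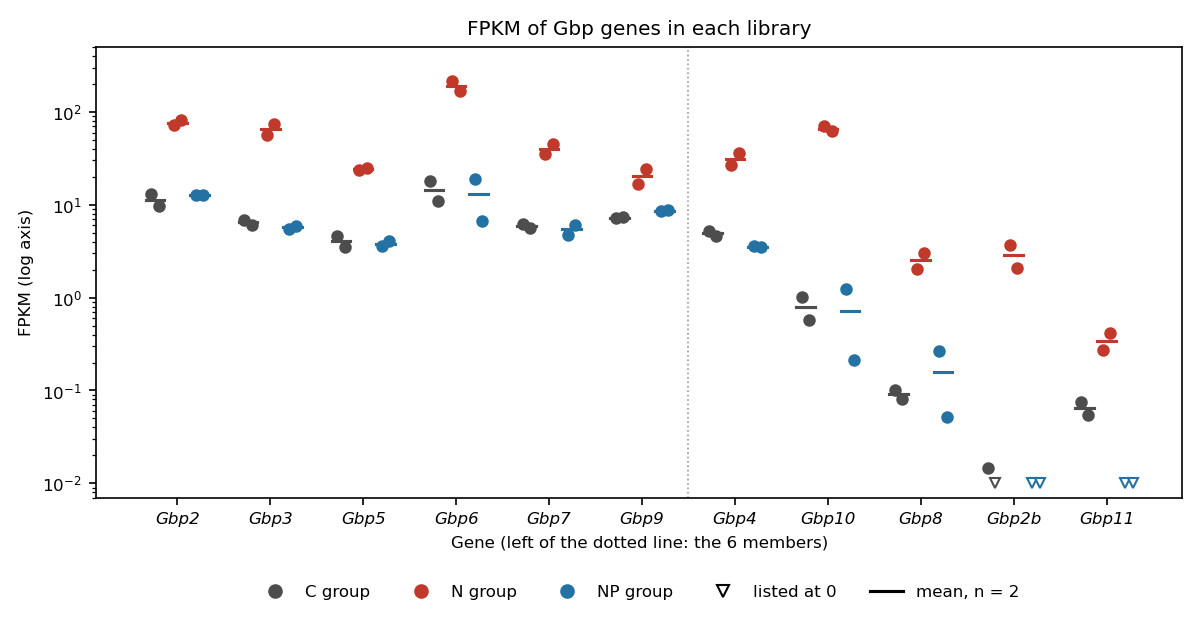
FPKM of the 11 Gbp genes in each of the 6 libraries on a log axis, with points for libraries, bars for the group mean (n = 2) and open triangles for libraries listed at 0, drawn at the bottom of the axis. In every gene both N libraries lie above all C and NP libraries, for example 71.6 and 81.0 against 9.62 to 12.9 for Gbp2.

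Relative to the C group, all 6 members were higher in both N libraries than in both C libraries, a pattern that 22.5% of the 12923 genes tested also had. The mean FPKM was 13.2 times as high for *Gbp6* (192 ± 31.4 against 14.5 ± 4.96, SD, n = 2), 10.1 times for *Gbp3*, 6.85 times for *Gbp7*, 6.76 times for *Gbp2*, 5.98 times for *Gbp5* and 2.84 times for *Gbp9* (20.6 ± 5.43 against 7.25 ± 0.0918, SD, n = 2). On the scale of log2(FPKM + 1), which understates changes of low values, the differences ran from 1.37 for *Gbp9* to 3.66 for *Gbp6* with a median of 2.62, while the median over all genes tested was -0.03. Over the 4 pairs of an N and a C library, the difference of *Gbp9* ran from 1.10 to 1.64 and that of *Gbp6* from 3.16 to 4.16, so these members were separated from each other by more than the spread between libraries. The ranges of *Gbp2* (2.38 to 2.95), *Gbp7* (2.35 to 2.80) and *Gbp5* (2.13 to 2.53) overlapped. When the FPKM were scaled to the same total, the median of all genes moved from -0.03 to 0.12 and that of the members to 2.78, and each member remained higher in the N group under each scaling.

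Relative to the N group, all 6 members were lower in both NP libraries than in both N libraries, a pattern that 14.7% of the genes tested had. The mean FPKM of the N group was 14.9 times that of the NP group for *Gbp6*, 11.5 times for *Gbp3*, 7.44 times for *Gbp7*, 6.35 times for *Gbp5*, 5.99 times for *Gbp2* and 2.39 times for *Gbp9*. The log2 differences ran from -3.94 for *Gbp6* to -1.15 for *Gbp9*, with a median of -2.59 against 0.03 over all genes tested. This comparison and the one with the C group share the N libraries, so the order of the members in one is not independent of that in the other.

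For NP against C the members were close to each other. Their log2 differences ran from -0.28 for *Gbp6* to 0.22 for *Gbp9*, with a median of -0.08 against -0.01 over all genes tested. *Gbp9* was higher in both NP libraries than in both C libraries, as were 19.5% of the genes tested, *Gbp3* was lower in both, as were 23.0%, and the libraries of the other 4 members overlapped. The direction of *Gbp5* and *Gbp7* was not firm, since it turned from -0.06 to 0.06 and from -0.11 to 0.02 when FPKM were scaled to the same total, and the median of the members turned to 0.04. With 1 library left out, *Gbp2* turned to -0.02 (without C replicate 2), *Gbp5* to 0.10 and *Gbp6* to 0.05 (without C replicate 1), *Gbp6* to 0.41 (without NP replicate 2) and *Gbp7* to 0.04 (without NP replicate 1). Because the range of *Gbp6* over pairs was -1.30 to 0.74, a difference of this size for NP against C was not resolved for that gene.

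**Figure D3:**
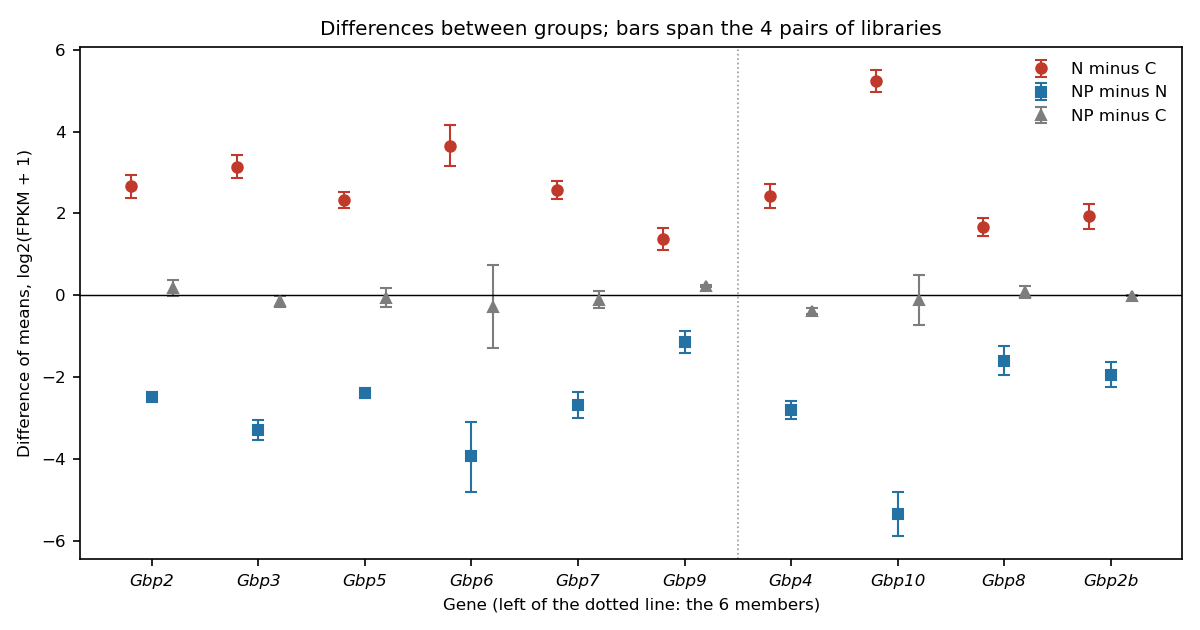
Differences between group means on the log2(FPKM + 1) scale for 10 Gbp genes, with circles for N minus C, squares for NP minus N and triangles for NP minus C, and bars that span the 4 pairs of libraries of each comparison. N minus C is positive and NP minus N negative for every gene shown, from 1.37 and -1.15 for Gbp9 to 5.23 and -5.35 for Gbp10, while NP minus C lies between -0.38 and 0.22.

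The members differed in the size of their N against C difference, and the composition of the *Gbp* transcripts differed between the groups as well. The FPKM of all 11 genes summed to 62.3 and 48.5 (C libraries), 521 and 524 (N libraries) and 59.4 and 48.0 (NP libraries), a mean 9.43 times as high in the N group as in the C group. *Gbp9* made up 11.5% and 15.1% of this sum in the C libraries, 3.22% and 4.67% (N libraries) and 14.4% and 18.1% (NP libraries). It was last in the order of the members in both N libraries, and only *Gbp2* and *Gbp6* lay above it in the C libraries and NP replicate 1. *Gbp6* and *Gbp10* together made up 30.6% and 23.9% (C libraries), 54.6% and 44.2% (N libraries) and 34.3% and 14.5% (NP libraries). In the C libraries the order of the members was *Gbp6*, *Gbp2*, *Gbp9*, *Gbp3*, *Gbp7* and *Gbp5*, where *Gbp9*, *Gbp3* and *Gbp7* lay within 5.62 to 7.31. In the N libraries it was *Gbp6*, *Gbp2*, *Gbp3*, *Gbp7*, *Gbp5* and *Gbp9*, and the values of *Gbp2* and *Gbp3* overlapped, as did those of *Gbp5* and *Gbp9*.

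**Figure D4:**
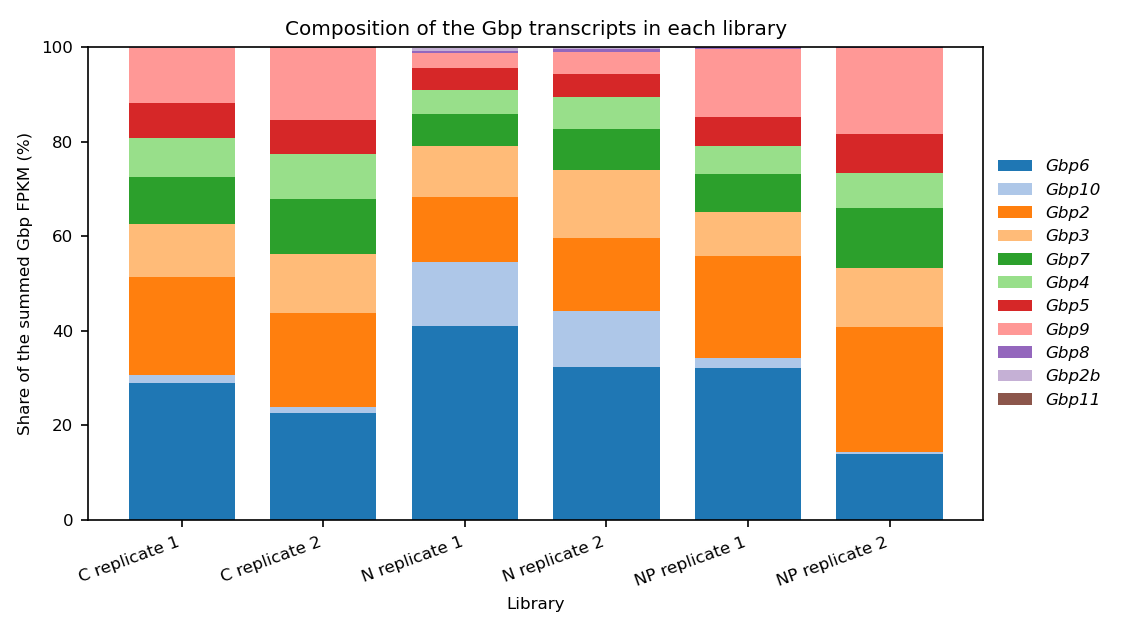
Share of each Gbp gene in the summed FPKM of the 11 Gbp genes, in percent, with one stacked bar per library. The share of Gbp10 is 13.5% and 11.8% (N libraries) and at most 2.08% in the others, and that of Gbp9 is smallest in the N libraries.

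The *Gbp* genes outside the 6 members were tested with limma together with all genes, of which 200 had an adjusted *P* value under 0.05 for N against C, 191 higher (1.48%) and 9 lower (0.0696%) in the N group. At an unadjusted limma *P* value under 0.05, 1065 of the 12923 genes tested were higher and 873 lower in the N group. Of the 5 other *Gbp* genes found in the files, 4 passed the filter on low values and were called higher in the N group and lower in the NP group. *Gbp8* and *Gbp2b* reached the filter only through their N libraries, so they could hardly be tested without being high there. *Gbp10* had an FPKM of 1.01 and 0.580 (C libraries), 70.5 and 61.9 (N libraries) and 1.24 and 0.212 (NP libraries), which differed on the log2 scale by 5.23 (limma adjusted *P* = 0.00176, standard error 0.30) for N against C and by -5.35 (limma adjusted *P* = 0.00154) for NP against N. The ratio of *Gbp10* to *Gbp6* was 5.61% and 5.26% (C libraries), 32.9% and 36.4% (N libraries) and 6.46% and 3.15% (NP libraries), as far as the reads were divided correctly between these genes. *Gbp4* had a mean FPKM of 4.91 ± 0.428 (C), 31.2 ± 6.65 (N) and 3.54 ± 0.0337 (NP; SD, n = 2), differing on the log2 scale by 2.43 and -2.81 (limma adjusted *P* = 0.00285 and 0.00163). Without C replicate 2 the first of these adjusted *P* values of *Gbp4* was 0.0519, and over all alternatives it ran from 0.00191 to 0.0519.

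*Gbp8* and *Gbp2b* were near the limit of detection outside the N group. *Gbp8* had an FPKM of 0.101 and 0.0816 (C libraries), 2.01 and 3.05 (N libraries) and 0.268 and 0.0520 (NP libraries), which corresponds to about 6, 4, 40, 60, 5 and 1 reads. *Gbp2b* had 3.72 and 2.10 (N libraries), about 86 and 48 reads, about 1 read in C replicate 1, and was listed at 0 in C replicate 2 and both NP libraries. Their log2 differences for N against C were 1.68 and 1.93 (limma adjusted *P* = 0.0189 and 0.0172), sizes that depend on the pseudocount at such low values. For NP against N the limma adjusted *P* values were 0.0242 for *Gbp8* and 0.0188 for *Gbp2b*. With 1 library left out, the adjusted *P* value of *Gbp8* rose to at most 0.137 (without C replicate 2) for N against C and 0.140 (without NP replicate 2) for NP against N, and that of *Gbp2b* to 0.136 (without C replicate 2) and 0.132 (without NP replicate 1). Both genes lost the call in N against C also without C replicate 1, *Gbp8* without N replicate 2 and *Gbp2b* without NP replicate 1. In NP against N both lost it without either C or either NP library, and *Gbp8* without N replicate 2. When only the groups compared were fitted, the adjusted *P* values for NP against N were 0.0803 for *Gbp8* and 0.0682 for *Gbp2b*, and with a pseudocount of 0.1 that of *Gbp8* was 0.0695. The pseudogene *Gbp11* was under the filter, with at most about 4 reads in any library.

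The immunity-related GTPases, which work on the same vacuoles as the *Gbp* products, had the largest median difference of the pathway lists. Of 12 genes listed, 11 were tested, 10 rose in the N group and the same number fell in the NP group, with a median log2 difference of 3.69 and -4.09. Without C replicate 2, 4 of the 10 calls for N against C were lost, with adjusted *P* values of 0.0613 (*Iigp1*), 0.0625 (*Ifi47*), 0.0839 (*Gm4951*) and 0.0519 (*Gm12250*). Without NP replicate 2, *Gm4951* lost its call for NP against N (0.0727). *F830016B08Rik*, a gene of this family, had an FPKM of 6.26 and 5.98 (C libraries), 575 and 635 (N libraries) and 4.22 and 3.68 (NP libraries). It differed on the log2 scale by 6.41 (limma adjusted *P* = 4.14e-05) and -6.94 (limma adjusted *P* = 2.61e-05). *Igtp*, which encodes the regulator Irgm3, had 9.47 and 7.74, then 397 and 601, then 6.46 and 8.97, and differed by 5.68 and -5.83 (limma adjusted *P* = 9.59e-04 and 8.41e-04). *Irgm2* and *Tgtp2* differed by 4.21 and 3.32 for N against C (limma adjusted *P* = 9.59e-04 for both) and by -4.54 and -3.78 for NP against N (limma adjusted *P* = 8.41e-04 and 5.32e-04). How far reads are shared between paralogs of this family was not measured here. For NP against C none of the 11 passed in limma's test, where 4 were lower at an unadjusted *P* value under 0.05. Over all genes, 5 (0.0387%) passed as higher and 0 (0%) as lower for NP against C in that test, with 500 and 540 at an unadjusted *P* value under 0.05. This balance depended on the C libraries, since 10 passed as higher and 91 as lower without C replicate 1, and 5 and 7 without C replicate 2.

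On the interferon-gamma side, 5 of 11 genes tested rose in the N group and 6 fell in the NP group, against 1.39% of all genes tested that fell and 0% that rose between these groups (179 and 0 genes in limma's test, with 754 and 285 at an unadjusted *P* value under 0.05). The ligand gene *Ifng* was listed at 0 in 5 libraries and had an FPKM of 0.114 in N replicate 2, so its level was not measurable at this depth. The receptor and kinase genes *Ifngr1*, *Ifngr2*, *Jak1* and *Jak2* had log2 differences of 0.08, -0.26, 0.08 and -0.00 for N against C (limma adjusted *P* = 0.861, 0.461, 0.864 and 0.997).

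*Nlrc5* and *Ciita*, which encode the activators of MHC class I and class II genes, rose by 2.13 and 1.82 in the N group (limma adjusted *P* = 0.00308 and 0.00325), and differed by -2.48 and -2.07 for NP against N (limma adjusted *P* = 0.00186 and 0.00218). *Ciita* reached the filter on low values only through its N libraries. *Irf8*, a factor of macrophages and dendritic cells, and *Irf1* rose by 1.21 and 1.55 (limma adjusted *P* = 0.0141 and 0.0219) and differed by -1.29 and -1.54 in the NP group (limma adjusted *P* = 0.0118 and 0.0235). Without C replicate 2 their adjusted *P* values for N against C were 0.169 and 0.197, and over the alternatives they ran from 0.00993 to 0.169 and from 0.00768 to 0.197. For NP against N they reached 0.0898 for *Irf8* (without NP replicate 2) and 0.158 for *Irf1* (without NP replicate 1). Both genes also lost the call in N against C without C replicate 1 or N replicate 2, and in NP against N without either C library, N replicate 2 or either NP library. With all libraries in, they lost it for NP against N when only these groups were fitted (0.0771 for *Irf8* and 0.100 for *Irf1*), and *Irf1* also without a filter (0.0532). The call of *Socs3*, a feedback inhibitor with a log2 difference of -0.76 for NP against N (limma adjusted *P* = 0.0473), was also lost, with 0.205 without NP replicate 1.

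On the type I interferon side, 3 of 7 genes tested rose in the N group and 3 fell in the NP group. These were *Irf7* (on the log2 scale 2.36 and -2.34, limma adjusted *P* = 0.00578 and 0.00599), *Irf9* (1.69 and -1.69, limma adjusted *P* = 0.00308 and 0.00297) and *Stat2* (1.42 and -1.36, limma adjusted *P* = 0.0220 and 0.0273). *Ifnb1* was listed at 0 in every library, and the receptor gene *Ifnar2* had a log2 difference of 0.42 (limma adjusted *P* = 0.251). The adjusted *P* value of *Irf9* for N against C was 0.0519 without C replicate 2. That of *Irf7* was 0.0574 without N replicate 2 and, for NP against N, 0.0689 without NP replicate 2, and those of *Stat2* reached 0.203 without C replicate 2 and 0.169 without NP replicate 2. For NP against N, *Irf7* also lost the call without N replicate 2 or NP replicate 1. *Stat2* lost it in NP against N without any 1 of the 6 libraries, and in N against C without any except N replicate 1. With all libraries in, *Stat2* also lost the call without a filter (0.0534 for N against C and 0.0612 for NP against N) and when only the groups compared were fitted (0.0525 and 0.0932).

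Of 10 genes of the NF-κB axis, 0 passed in limma's test in either comparison, with 3 higher in the N group and 2 lower in the NP group at an unadjusted *P* value under 0.05, and a median log2 difference of 0.30 and -0.23. At this unadjusted threshold, 1065 of the 12923 genes tested were higher in the N group and 754 were lower for NP against N. *Tnfrsf1b*, a receptor of tumour necrosis factor, had 0.85 for N against C (limma adjusted *P* = 0.0618, and 0.0334 to 0.444 over the alternatives). It passed with a replicate block (0.0334) and when scaled to the same total (0.0472). *Tnfaip3*, an inhibitor of this pathway, had 0.61 (limma adjusted *P* = 0.139). Of 11 inflammasome genes tested, 1 rose and fell again, *Zbp1*, an interferon-induced sensor of nucleic acids, differing on the log2 scale by 2.82 and -3.11 (limma adjusted *P* = 0.00348 and 0.00253, and 0.0519 for the first without C replicate 2).

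*Casp4*, the mouse gene of caspase-11, had an FPKM of 3.04 and 1.30 (C libraries), 3.49 and 3.61 (N libraries) and 1.67 and 1.23 (NP libraries). It differed on the log2 scale by 0.58 and -0.90 (limma adjusted *P* = 0.398 and 0.378). *Casp1* differed by 0.89 for N against C (limma adjusted *P* = 0.0713, and 0.0327 to 0.400 over the alternatives, passing with a replicate block at 0.0461 and when scaled to the same total at 0.0327), the DNA sensor *Aim2* by -0.08 (limma adjusted *P* = 0.882) and *Gsdmd*, which encodes the pore protein gasdermin D, by 0.35 (limma adjusted *P* = 0.457). *Nlrp3* was under the filter, with an FPKM of 0.238 and 0.216 (C libraries), 0.829 and 0.690 (N libraries) and 0.190 and 0.0922 (NP libraries). At an unadjusted *P* value under 0.05, 2 of the 11 inflammasome genes were higher in the N group and 5 were lower for NP against N. *Il1b*, 1 of the 5, reached the filter only through its N libraries. Among all 12923 genes tested, 1065 were higher in the N group and 754 lower for NP against N at an unadjusted limma *P* value under 0.05.

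Of the genes of ATG8 conjugation, which places *Gbp* and IRG proteins on vacuoles, 0 of 10 passed in limma's test in either comparison, and 0 had an unadjusted *P* value under 0.05, with medians of -0.11 and 0.01. Of 8 prenylation genes, whose products attach the anchor of *Gbp2* and *Gbp5*, 0 passed, with 0 for N against C and 1 for NP against N at an unadjusted *P* value under 0.05, and medians of -0.13 and 0.07. Of 16 other genes of the dynamin superfamily, the wider family of large GTPases, 0 passed, with 1 and 2 at an unadjusted *P* value under 0.05 and medians of 0.05 and 0.04. *Gvin1*, an interferon-induced giant GTPase in that list, had a log2 difference of 0.57 for N against C (limma adjusted *P* = 0.177) and also reached the filter only through its N libraries.

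**Figure D5:**
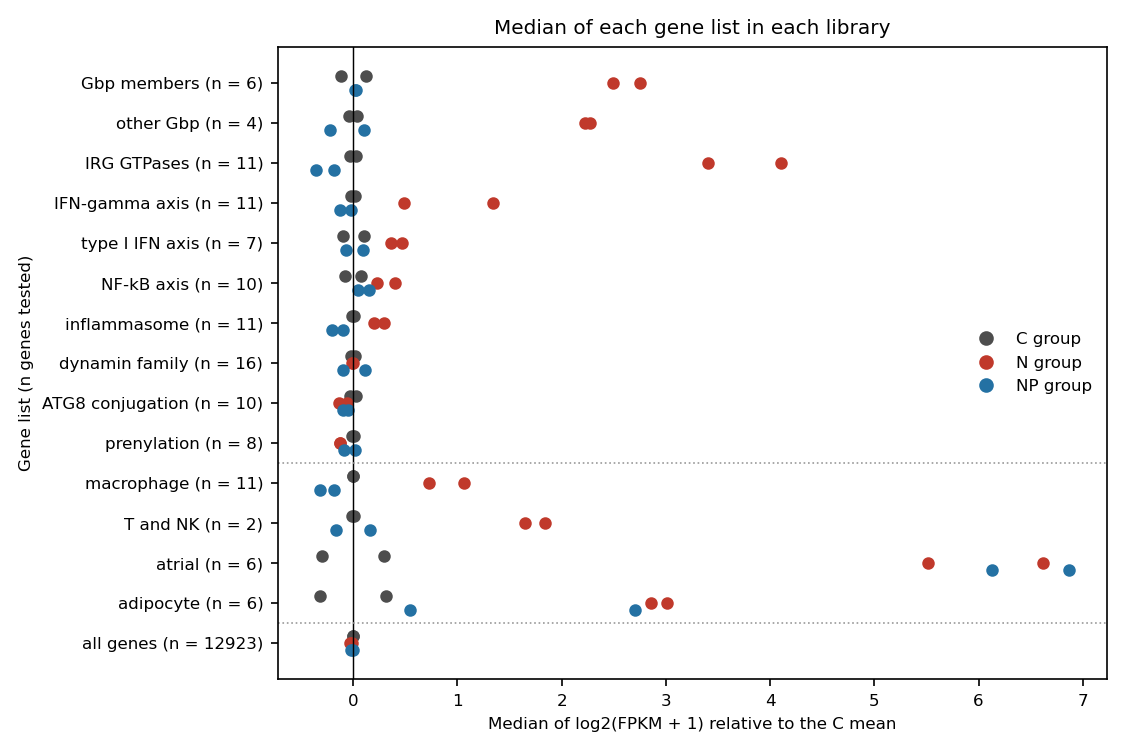
Median over the genes of each list of log2(FPKM + 1) relative to the mean of the C libraries, with one point per library coloured by group, pathway lists above the first dotted line, cell markers between the dotted lines and all genes tested at the bottom. The Gbp members stand at 2.49 and 2.75 (N libraries) and at 0.03 and 0.02 (NP libraries), while the atrial markers are as high in the NP as in the N libraries.

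The genes outside the *Gbp* family whose profile was nearest to the mean profile of the members were sought among 12913 genes, by the Euclidean distance of mean-centred log2(FPKM + 1) values over 6 libraries. They were *Ifit3* (distance 0.342), *Psmb9* (0.401), *Irf7* (0.406), *Ifi47* (0.412), *H2-Aa* (0.493), *Ifit3b* (0.507), *Serpina3g* (0.516) and *Batf2* (0.534). *Serpina3g* reached the filter on low values only through its N libraries, so its high values there were largely set by the filter. *Ifit3* and *Ifit3b* encode interferon-induced proteins with tetratricopeptide repeats, *Psmb9* a subunit of the immunoproteasome, *Ifi47* an IRG protein and *H2-Aa* an MHC class II chain. The FPKM of *Psmb9* was 8.93 and 7.58 (C libraries), 64.2 and 77.3 (N libraries) and 7.94 and 8.43 (NP libraries), and that of *H2-Aa* was 69.6 and 65.2, then 414 and 374, then 49.8 and 51.3. Among the members themselves the distance to their mean profile was 0.254 for *Gbp2*, 0.355 for *Gbp7*, 0.387 for *Gbp5* and 0.717 for *Gbp3*, but 1.69 for *Gbp6* and 1.65 for *Gbp9*, so that these 8 genes lay nearer to the mean than 3 of the 6 members.

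Of 11 macrophage genes tested, 4 rose in the N group and 7 fell in the NP group in limma's test, and their summed FPKM was 412 and 370 (C libraries), 763 and 638 (N libraries) and 315 and 276 (NP libraries). The most abundant, *Lyz2*, had 169 and 160, then 251 and 258, then 112 and 104, and none of the 11 was at 0 in a library. Of 11 T and natural killer cell genes found, 2 passed the filter, *Nkg7* and *Gzmb*. Both reached it only through their N libraries, so a call in this direction was largely set by the filter (on the log2 scale 1.97 and -2.03 for *Nkg7*, limma adjusted *P* = 0.00515 and 0.00465). The summed FPKM of these 11 was 1.04 and 1.06 (C libraries), 10.2 and 10.7 (N libraries) and 1.17 and 0.786 (NP libraries), and *Cd3d* was at 0 in both NP libraries. The B cell genes summed to 1.04 and 0.783, then 5.46 and 5.13, then 1.28 in both NP libraries, with *Cd79a* as the most abundant and 0 of 2 tested genes called by limma in either comparison, both with an unadjusted *P* value under 0.05. These 2 also reached the filter only through their N libraries. The part of these cells in the level of the *Gbp* genes was not tested.

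Of the neutrophil genes, 3 were tested, 0 rose in the N group in limma's test (1 at an unadjusted *P* value under 0.05) and 1 fell in the NP group. Their summed FPKM was 7.63 and 3.32 (C libraries), 12.6 and 9.98 (N libraries) and 2.09 and 3.14 (NP libraries), with *S100a9* as the most abundant. The dendritic cell genes summed to 6.34 to 11.4 over the 6 libraries, with *Zbtb46* as the most abundant and 0 of 3 genes called by limma (1 higher in the N group and 1 lower in the NP group at an unadjusted *P* value under 0.05). This was *Itgax* in both cases, which reached the filter only through its N libraries. Most of the dendritic cell sum was *Zbtb46*, whose groups overlapped, as did those of *Clec9a* and *Cd209a*. Under the filter, *Xcr1* had 0.505 and 0.727 (N libraries) against 0.0356 to 0.276 in the C and NP libraries. *Flt3* had 0.328 and 0.332 (N libraries) against 0.0329 to 0.136. *Siglech* went the other way, at 0 in both N libraries and 0.0839 to 0.166 in the others. Endothelial genes summed to 1741 and 1693 (C libraries), 1433 and 1529 (N libraries) and 1451 and 1407 (NP libraries). Most of this was *Fabp4*, with 1341 and 1322, then 1005 and 1195, then 995 and 1057, so the sum mainly follows that gene. Fibroblast genes summed to 507 and 573, then 659 and 660, then 611 and 720. Of the 9 endothelial and the 7 fibroblast genes, 0 passed in limma's test, with 1 of each at an unadjusted *P* value under 0.05 for N against C and 0 for NP against N. Among the 12923 genes tested, 1065 were higher and 873 lower for N against C at this unadjusted threshold.

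Of 6 atrial genes, 5 rose in the N group, and 3 were called higher for NP against C, with a summed FPKM of 331 and 210 (C libraries), 3728 and 5259 (N libraries) and 3814 and 6284 (NP libraries) and *Nppa* as the most abundant. *Sln* was at 0 in C replicate 1 and had 250 and 462 (N libraries) and 287 and 518 (NP libraries). The atrial genes were thus as high in the NP libraries, where the *Gbp* genes were low, as in the N libraries, while for N against C both were higher together. The adipocyte genes summed to 2.09 and 9.38 (C libraries), 190 and 104 (N libraries) and 16.0 and 87.4 (NP libraries), with *Cfd* as the most abundant, and 0 of 6 passed in limma's test (6 higher in the N group at an unadjusted *P* value under 0.05). The erythroid genes summed to 30.7 and 161, then 147 and 200, then 155 and 156, mostly *Hba-a1*, with 0 of 3 called by limma and 0 at an unadjusted *P* value under 0.05. The part of the tissue sampled in the difference for N against C was not tested.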

How the data were processed

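The authors mapped single-end reads of stranded mRNA libraries to mm10 with TopHat2 2.0.13, Bowtie2 2.2.3 and SAMtools 0.1.19, as named in the submitters' processing notes, and Cufflinks 2.2.1 gave the deposited FPKM. Groups came from the sample labels. Here log2(FPKM + 1) was used without further scaling. A mean FPKM of 0.5 or more was required, which 12923 genes reached, and a model with 3 groups was fitted with limma 3.58.1 in R 4.3.3 (contrasts, moderation following the mean level), and *P* values were adjusted over all genes by the Benjamini-Hochberg method with a threshold of 0.05. All 6 members passed this filter. With 2 libraries per group, an exact permutation test cannot go below 0.333 and was not used. Nothing states that the libraries of a group came from separate animals, so *P* values measure only the spread between these libraries.

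Depth was estimated from genes with 1 transcript in GENCODE M21, with 200 bases taken off the length. Of values of up to 5 reads, 73.1% to 80.3% were whole numbers to within 0.1 in the 6 libraries. The members and the gene lists, which were written by hand, were chosen with earlier results of these data known, including the rise of interferon genes in the N group. Named genes are the members, every other *Gbp* gene, for each pathway list up to 4 tested genes that ranked highest by limma's t for N against C, a fixed set (*Ifng*, *Irf1*, *Casp4*, *Aim2*, *Nlrp3*, *Gsdmd*), markers and the 8 nearest profiles. A gene that this rule names is not reported here. *Ifngr1*, *Ifngr2*, *Jak1*, *Jak2*, *Socs3*, *Ifnb1*, *Il1b*, *Iigp1*, *Gm4951* and *Gm12250* were named after their values were seen. The depth estimate and the limma model were run on simulated data. Alternatives were pseudocounts of 0.1 and 0.5, other filters, 3 scalings, a replicate block, a fit without trend, fits of only the groups compared, and fits without each library. Marker genes were not followed singly through these alternatives. Sequences were searched in Python 3.11.15 (pandas 2.3.3, numpy 2.4.6), and figures were drawn with matplotlib 3.10.9.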

Additional observations from a re-analysis of the deposited data

How the results depend on the processing

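The members kept their direction for N against C and for NP against N under all settings tried, whereas for NP against C 8 of 96 values changed sign. Because the members were selected for high N and low NP values, the first result was largely fixed by that selection and lends no support. The median of the members for N against C, 2.62, ran from 2.49 (without C replicate 2 or N replicate 2) to 2.78 (scaled to the same total). The median for NP against N, -2.59, ran from -2.75 (pseudocount of 0.1) to -2.46 (without N replicate 2). For NP against C it ran from -0.19 (without C replicate 2) to 0.08 (without C replicate 1). The genes called for N against C, 200 in the report, numbered 309 when scaled to the same total and 328 with a replicate block. With 1 library left out they ran from 49 (without C replicate 2) to 183 (without C replicate 1, where 88 were higher and 95 lower), and the lone library was assumed to vary like the other groups. For NP against N 179 genes became 78 when only these groups were fitted, and 67 (without NP replicate 2) to 108 (without N replicate 1). For NP against C 5 genes became 12 with a pseudocount of 0.1, 0 without a filter in limma's test, 10 when scaled to the same total, 20 with the block, and 5 (without N replicate 1) to 101 (without C replicate 1, where 10 were higher and 91 lower). The cause of these changes was not tested. The labels link libraries of different groups only by a replicate number, and the names of the submitted tables also pair each N with an NP library of that number. The difference between replicates correlated over genes at a Pearson r of 0.0471 (C and N), 0.124 (C and NP) and 0.458 (N and NP). The Spearman rho was 0.230, 0.263 and 0.555 in the same order, and these values bear on the pairing only. Of 24 genes outside the members that were named and called in each comparison, 11 for N against C and 15 for NP against N passed in all settings. At the depth of the N and NP libraries, genes of a few reads, such as *Gbp11*, could not be compared.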
